A study of Mus musculus with 6 samples.

Results

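The 50 genes described here encode proteins that carry cells into and through mitosis, from the cyclins and kinases of mitotic entry to the kinetochores, spindle motors, condensin and the machinery of cytokinesis. They were taken as a list of gene symbols, and all 50 were found by symbol among the 55487 genes of the count table. All 50 passed the filter on low counts, which left 13022 genes in the test. The RNA was from untreated 4T-1 cells, a line grown from a mouse mammary tumour. In the labels, 3 libraries have the genotype wild type and 3 have the genotype Lyplal1 knockout, and no other allele or drug is named for either group. The sample descriptions carry the tags NC for wild type and sg2 for knockout, which the labels do not spell out, so the wild-type libraries may not be plain parental cells. Lyplal1 encodes an acyl-protein thioesterase-like protein, and the title of the study names it as acting on palmitoylated cGAS, a sensor of cytosolic DNA. The sources used here do not give the number of clones behind the knockout or whether the 3 libraries of a group came from separate cultures, so p-values measure the spread between these libraries, which may be technical.

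Entry into mitosis is driven by CDK1 bound to cyclin A or cyclin B, and the transcription factor FOXM1, with B-MYB and the MuvB complex, switches on many genes of this program in G2. Kinetochores then attach chromosomes to spindle microtubules, the spindle checkpoint holds back the anaphase-promoting complex (APC/C) until all are attached, and the cell divides by cytokinesis. Because most of these RNAs peak in G2 and mitosis, their level in a culture follows how many cells are cycling. In bulk RNA, fewer cells in G2 and mitosis and less RNA per such cell cannot be told apart.

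Total counts were 16731209 to 17108975 per library. Libraries of the same group differed by more than counting noise (chi-square of 1.41 to 3.57 per gene), so none is a copy of another, and the 2 largest values, 3.35 and 3.57, involve knockout replicate 3. The targeted gene, Lyplal1, had 68 to 76 counts in the wild-type libraries and 48 to 58 in the knockout libraries and missed the threshold (log2 fold change -0.28 ± 0.15 (SE), edgeR adjusted p = 0.0886), and its RNA level alone does not check a knockout label. All 6 mammary epithelial markers examined were expressed, with a summed level of 3911 to 4022 CPM (counts scaled to a common library size) in wild type and 3072 to 3074 CPM in knockout. Of these 5 were called lower, among them Krt19 (3.87-fold), Epcam (3.005-fold) and Krt18 (2.72-fold), and Krt7 was called higher (1.68-fold). The 8 leukocyte markers summed to 8.41 to 8.76 CPM in wild type and 443 to 500 CPM in knockout, nearly all of it from Cd68 and Lyz2, while the defining marker Ptprc had 1 to 7 counts in each library. The 4 endothelial markers summed to 0.168 to 0.223 CPM in wild type and to 1.06, 1.56 and 6.48 CPM in knockout replicates 1 to 3. The 6 fibroblast markers summed to 67.3 to 70.0 CPM in wild type and 167 to 180 CPM in knockout, nearly all of it from Pdgfra, while Col1a1 was lower in knockout (0.378 of the wild-type level) and the other 4 had at most 33 counts in any library. The part of these markers in the results was not tested.

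In each of the 6 groups of members, most genes were lower in the knockout libraries. Of the 50 members 46 fell, 2 rose and 2 were not called (quasi-likelihood F test of edgeR, with a gene called where its p, adjusted by Benjamini-Hochberg over all tested genes, was under 0.05). Called genes were common in this comparison, at 82.3% of all tested genes, with 40.9% lower and 41.3% higher in knockout. Among the members 92% were lower. The members and the lists described further on were chosen with earlier results of these data known, so no share over them was tested. The members had a median log2 fold change of -0.63, knockout over wild type, beside a median of -0.0012 over all tested genes. A fall of at least 1.5-fold was called for 27 of the 50 members and for 24.9% of all tested genes. For a fall of at least 2-fold the counts were 7 of 50 and 15.6%, a share close to the background. The knockout libraries lay below all wild-type libraries in 46 members and in 41.4% of tested genes. The split of all tested genes depends on scaling: limma-trend on log2 of the deposited TPM + 1 called 6598 lower and 4125 higher, where edgeR called 5329 and 5382, and it called 48 members lower and 1 higher. That scaling and upper-quartile factors moved the median of all genes to -0.19 and -0.13, and the median of the members minus that of all genes was -0.64 and -0.63 there, beside -0.63 with edgeR and TMM factors. A change of library scaling shifts all genes by about the same amount. This difference was therefore bound to stay nearly the same, and it does not check the scaling.

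**Figure D1:**
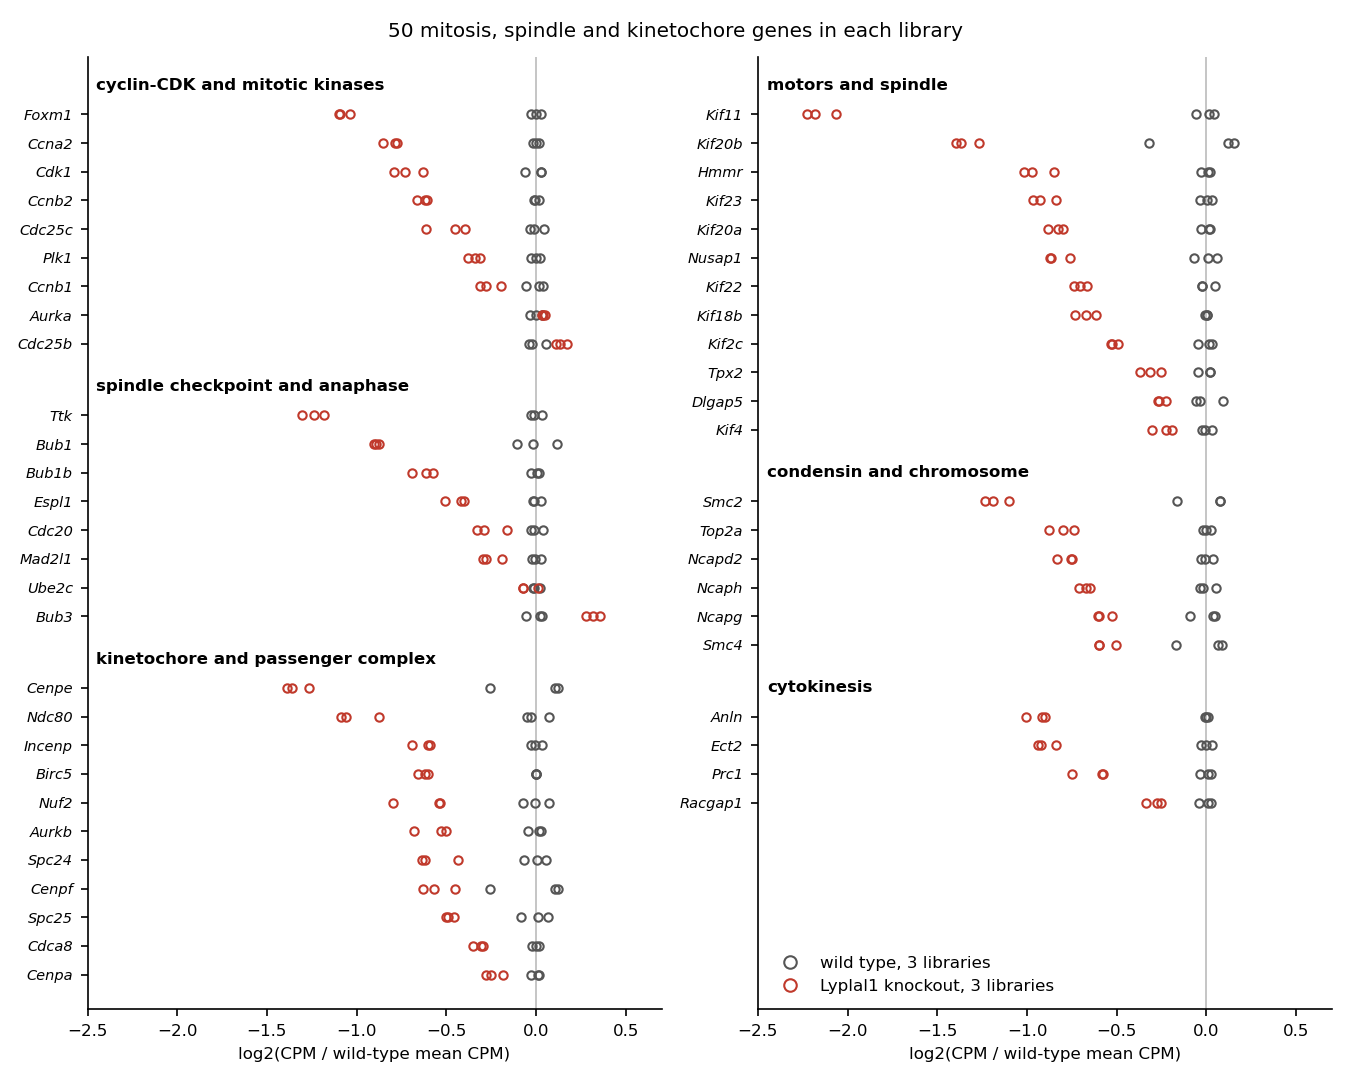
Each row is a member, and each circle is a library plotted as log2 of its CPM over the mean CPM of the wild-type libraries (grey, wild type; red, Lyplal1 knockout; 3 libraries each). Red circles lie to the left of all grey circles in 46 of the 50 rows, farthest for Kif11 (4.46-fold), and to the right of them for Bub3, Cdc25b and Aurka.

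Summed over the members, RNA made up 1.11%, 1.12% and 1.07% of the counts of the wild-type libraries, in the order of their replicate numbers, and 0.629%, 0.643% and 0.617% of those of the knockout libraries. On the deposited TPM scale, which divides by gene length, the members summed to 8806, 8849 and 8517 TPM in wild type and to 5021, 5106 and 4882 TPM in knockout. The groups were far apart on both scales, and wild-type replicate 3 and knockout replicate 3 were each the lowest of their group.

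Promoters of this class of gene often carry a CHR (cell cycle genes homology region), the element that MuvB binds through LIN54, together with CCAAT boxes, the sites of NF-Y. RefSeq promoter windows of GRCm38.p6, from 250 bases before to 50 bases after the annotated start, were matched by symbol for 40 of the 50 members, in 43 windows. The members without a window are Ccna2, Cdc25c, Foxm1, Spc24, Aurkb, Incenp, Kif20a, Tpx2, Dlgap5 and Smc4. The letters searched on both strands were TTTGAA and TTCGAA for the CHR, the latter reading the same on both strands, and CCAAT for the CCAAT box. Neither motif contains the other, though neighbouring matches can share a base. A CHR was found in 36 of 43 member windows (83.7%) and in 19.2% of all 32851 windows. Within 50 bases of the start on either side the shares were 76.7% (33 of 43) and 5.31%. A CCAAT box was found in 34 member windows (79.1%) and in 37.4% of all windows, and at least 2 boxes in 51.2% and 11.7%. The 129 windows of the other division genes described further on lay between. Of these 36.4% held a CHR, 24.8% a CHR within 50 bases of the start, 55.8% a CCAAT box and 28.7% at least 2. A match is a run of letters and does not show that a factor is bound.

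**Figure D2:**
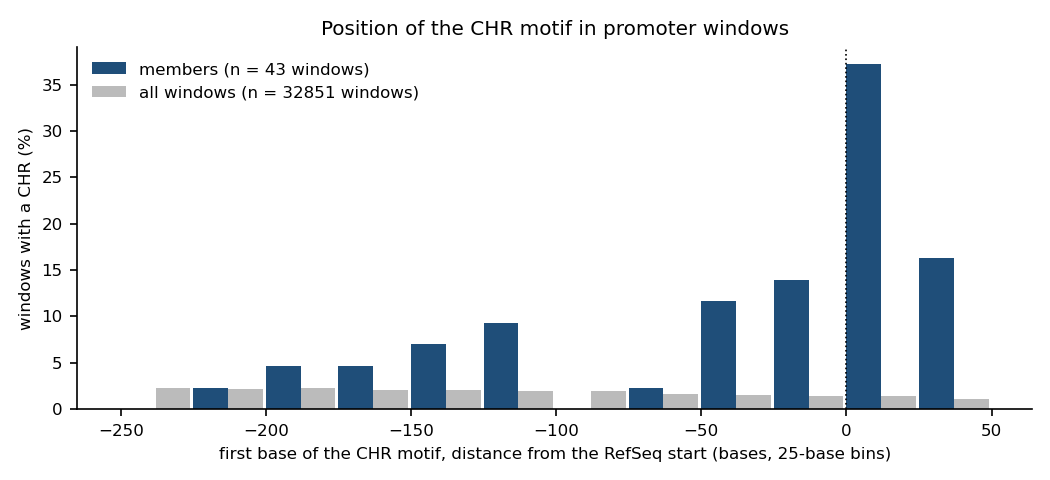
The share of promoter windows with the first base of a CHR in each 25-base bin, by distance from the RefSeq start, for 43 member windows (blue) and all 32851 windows (grey). Member windows reach 37.2% in the 25 bases that begin at the start, where 1.43% of all windows have a CHR.

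The windows that follow are those of the 4 members with the smallest adjusted p among those that fell and hold a CHR (Kif11, Anln, Ttk and Ect2), followed by the windows of the members that rose (Bub3 and Cdc25b). They are shown because both kinds carry the same element. Ect2 and Bub3 have 2 overlapping windows each, of which 1 is printed, and in the other window of Bub3 the CHR begins 167 bases before the start. They read 5′ to 3′ on the strand of the gene, with CHR and CCAAT letters of either strand in capitals.
Kif11, chr19:37376132-37376431, plus strand: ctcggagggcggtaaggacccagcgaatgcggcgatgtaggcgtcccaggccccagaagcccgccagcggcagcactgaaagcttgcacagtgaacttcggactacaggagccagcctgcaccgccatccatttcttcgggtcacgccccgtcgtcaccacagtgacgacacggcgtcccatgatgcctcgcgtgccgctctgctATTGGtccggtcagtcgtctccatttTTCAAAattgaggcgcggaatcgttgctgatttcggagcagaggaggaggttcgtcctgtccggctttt
Anln, chr9:22389157-22389456, minus strand: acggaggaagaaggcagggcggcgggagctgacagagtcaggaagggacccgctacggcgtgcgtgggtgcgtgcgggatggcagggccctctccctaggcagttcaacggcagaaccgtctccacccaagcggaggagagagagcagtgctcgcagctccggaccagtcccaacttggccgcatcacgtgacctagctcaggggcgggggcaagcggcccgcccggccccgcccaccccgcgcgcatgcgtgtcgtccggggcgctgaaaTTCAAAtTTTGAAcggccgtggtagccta
Ttk, chr9:83834439-83834738, plus strand: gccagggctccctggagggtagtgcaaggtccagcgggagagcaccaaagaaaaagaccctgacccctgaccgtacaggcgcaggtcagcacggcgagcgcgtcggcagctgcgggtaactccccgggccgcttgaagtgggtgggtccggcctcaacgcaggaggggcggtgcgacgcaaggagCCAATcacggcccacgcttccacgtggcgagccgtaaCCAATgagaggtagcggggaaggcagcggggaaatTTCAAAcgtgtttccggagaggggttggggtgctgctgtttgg
Ect2, chr3:27153805-27154104, minus strand: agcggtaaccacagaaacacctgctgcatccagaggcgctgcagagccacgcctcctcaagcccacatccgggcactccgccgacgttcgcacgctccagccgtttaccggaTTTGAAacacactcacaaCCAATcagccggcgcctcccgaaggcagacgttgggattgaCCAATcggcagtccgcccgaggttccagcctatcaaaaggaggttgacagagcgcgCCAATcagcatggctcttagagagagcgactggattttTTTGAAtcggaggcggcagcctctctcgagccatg
Bub3, chr7:131560120-131560419, plus strand: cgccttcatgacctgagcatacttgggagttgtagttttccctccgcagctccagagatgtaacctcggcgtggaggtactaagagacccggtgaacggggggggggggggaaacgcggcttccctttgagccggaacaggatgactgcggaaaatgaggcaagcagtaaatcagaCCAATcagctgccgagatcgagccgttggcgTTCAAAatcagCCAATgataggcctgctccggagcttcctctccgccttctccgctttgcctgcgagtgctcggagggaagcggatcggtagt
Cdc25b, chr2:131186698-131186997, plus strand: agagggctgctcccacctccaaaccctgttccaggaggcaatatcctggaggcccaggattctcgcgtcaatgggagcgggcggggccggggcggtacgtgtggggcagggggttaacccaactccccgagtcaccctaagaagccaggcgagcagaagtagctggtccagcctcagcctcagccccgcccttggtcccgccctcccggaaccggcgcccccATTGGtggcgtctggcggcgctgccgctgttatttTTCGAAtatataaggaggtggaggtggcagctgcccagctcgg
In Kif11 the CHR begins 19 bases before the start and a CCAAT box in reverse stands upstream of it, and Anln has 2 CHRs at 21 and 28 bases after the start in opposite directions. The 33 members with a CHR had a median log2 fold change of -0.63, ranging from -2.16 to 0.32, and the 7 without one had a median of -0.63, ranging from -1.34 to -0.25. Members that fell, that rose and that were not called, among them Aurka and Ube2c, all include genes with a CHR. Most members with a window hold a CHR and most fell, so these counts can hardly relate the 2, and such a relation was not tested.

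The regulators of mitotic entry fell for the most part. Of 9 cyclin-CDK genes and mitotic kinases 7 fell, 1 rose and 1 was not called, with a median log2 fold change of -0.48. Foxm1, the transcription factor of the G2 program (chromosome 6, 128362967 to 128376146), stood at 295, 283 and 289 CPM in wild-type replicates 1 to 3 and at 136, 141 and 135 CPM in knockout replicates 1 to 3. The groups did not overlap, and wild type was 2.11-fold higher (log2 fold change -1.07 ± 0.035 (SE), adjusted p = 2.71e-20). Ccna2, cyclin A2, stood at 324, 322 and 317 CPM in wild type and 178, 186 and 188 CPM in knockout (log2 fold change -0.81 ± 0.034, adjusted p = 8.05e-18). Its kinase partner Cdk1 went from 161, 161 and 152 CPM to 91.3, 95.3 and 102 CPM (log2 fold change -0.72 ± 0.043, adjusted p = 1.58e-14). Foxm1 shares exon positions with Tex52 and Gm44596 on the same strand, and those shared bases cannot be assigned by strand. Ccna2 shares exon positions with Exosc9 on the opposite strand, and with the strand setting unknown those bases cannot be assigned either.

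The B-type cyclins differed in level and in the size of their fall. Ccnb2 stood at 183, 186 and 182 CPM in wild type and 120, 120 and 116 CPM in knockout (log2 fold change -0.63 ± 0.036, adjusted p = 6.26e-15), with wild type 1.55-fold higher. Ccnb1 stood at 35.6, 33.4 and 35.1 CPM in wild type and 28.6, 28.0 and 30.3 CPM in knockout, a smaller fall of 1.2-fold (adjusted p = 2.54e-04). Per length, Ccnb2 was at 511 ± 6.97 TPM and Ccnb1 at 35.0 ± 1.12 TPM in wild type (SD, n = 3). Ccnb1 has 4 near-identical pseudogene copies elsewhere in the genome, the longest matching 1294 bases of its transcript at 98.1% identity, and these copies held 15 counts in wild type and 6 in knockout. How reads that map to several copies were treated is not given in the sources used here, so the level of Ccnb1 is less certain than that of Ccnb2.

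The phosphatases and kinases that switch CDK1 on did not move together. Plk1, polo-like kinase 1, was 1.27-fold higher in wild type, and Cdc25c, a phosphatase that activates CDK1, was 1.40-fold higher. Cdc25b, a phosphatase of the same family, stood at 167, 158 and 156 CPM in wild type and 174, 176 and 181 CPM in knockout. This was a rise of 1.10-fold (log2 fold change 0.14 ± 0.037, adjusted p = 1.21e-03), a call that was lost under upper-quartile scaling (0.0056, adjusted p = 0.891) and was below 0 on deposited TPM (-0.068, limma-trend adjusted p = 0.0987). Aurka, the centrosomal Aurora kinase, stood at 119, 121 and 124 CPM in wild type and 124, 125 and 125 CPM in knockout and was not called (log2 fold change 0.041 ± 0.038, adjusted p = 0.315). With upper-quartile factors its log2 fold change was -0.092 (edgeR adjusted p = 0.0258), and on log2(TPM + 1) it was -0.17 (limma-trend adjusted p = 7.18e-04), so whether Aurka is unchanged or slightly lower depends on the scaling. The falls of Foxm1, Ccna2 and Cdk1 were called under all 16 alternatives.

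**Figure D3:**
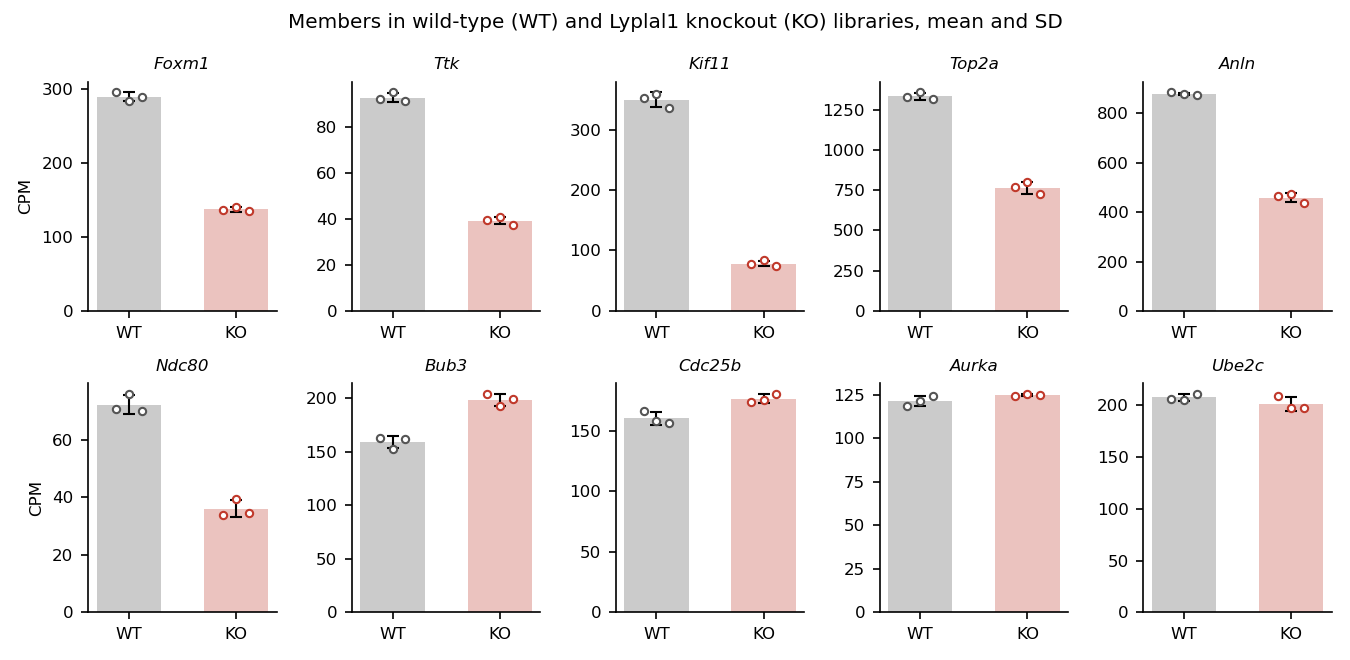
CPM of 10 members in wild-type (WT) and Lyplal1 knockout (KO) libraries, with circles for the 3 libraries of each group, bars for the mean and error bars for the SD. Foxm1, Ttk, Kif11, Top2a, Anln and Ndc80 are lower in knockout, Bub3 is higher, and Cdc25b, Aurka and Ube2c lie close to wild type.

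The spindle checkpoint was uneven from gene to gene. Of 8 checkpoint and anaphase genes 6 fell, 1 rose and 1 was not called, with a median log2 fold change of -0.35. Ttk, the kinase MPS1 that recruits the checkpoint to unattached kinetochores (chromosome 9, 83834689 to 83872389), stood at 92.2, 94.997 and 91.2 CPM in wild type and 39.4, 40.9 and 37.6 CPM in knockout. The wild-type level was 2.36 times the knockout level (log2 fold change -1.24 ± 0.048, adjusted p = 1.03e-18). Bub1, a checkpoint kinase at the kinetochore, went from 178, 162 and 152 CPM to 89.5, 87.9 and 88.5 CPM (log2 fold change -0.89 ± 0.047, adjusted p = 6.78e-15). Bub1b, which encodes the checkpoint protein BUBR1, went from 226, 221 and 227 CPM to 139, 147 and 151 CPM (log2 fold change -0.63 ± 0.037, adjusted p = 1.06e-14). No knockout library reached the lowest wild-type library in these 3 genes.

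Bub3, the binding partner of BUB1 and BUBR1, was the member that moved furthest the other way. It stood at 163, 153 and 162 CPM in wild type and 204, 193 and 199 CPM in knockout, a rise of 1.25-fold (log2 fold change 0.32 ± 0.037, adjusted p = 1.19e-08). Bub3 was the only member still called higher with upper-quartile factors and on deposited TPM. Mad2l1, which encodes the checkpoint protein MAD2, was 1.19-fold higher in wild type. That fall was not called with offsets for GC content and transcript length (log2 fold change -0.049, adjusted p = 0.321), an alternative chosen after seeing the data.

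The effectors of anaphase had small differences. Cdc20, the APC/C activator that the checkpoint inhibits, stood at 140, 138 and 145 CPM in wild type and 112, 115 and 126 CPM in knockout, a fall of 1.19-fold. Ube2c, the ubiquitin-conjugating enzyme of the APC/C, stood at 206, 205 and 211 CPM in wild type and 209, 197 and 197 CPM in knockout. Its groups overlapped, and it was not called (log2 fold change -0.044 ± 0.035, adjusted p = 0.243). Ube2c was called lower with upper-quartile factors (-0.18, edgeR adjusted p = 5.41e-05) and on log2(TPM + 1) (-0.25, limma-trend adjusted p = 9.58e-05). Espl1, separase, the protease that cuts cohesin, stood at 118, 115 and 115 CPM in wild type and 87.9, 81.8 and 86.8 CPM in knockout, 1.36-fold higher in wild type (adjusted p = 1.78e-10).

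All 11 genes of the kinetochore and the chromosomal passenger complex fell, with a median log2 fold change of -0.57. The 4 subunits of the NDC80 complex, the main microtubule coupler of the kinetochore, fell by different amounts. Ndc80 (chromosome 17, 71496100 to 71526857) stood at 70.8, 75.9 and 69.8 CPM in wild type and 33.9, 39.3 and 34.6 CPM in knockout, 2.01-fold above knockout in wild type (log2 fold change -1.005 ± 0.056, adjusted p = 4.44e-15). Its partner Nuf2 had a log2 fold change of -0.62 ± 0.063, and Spc24 and Spc25, the inner end of the rod, had -0.56 ± 0.063 and -0.48 ± 0.072. Within each of these 4 genes the groups did not overlap.

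The 4 genes of the passenger complex, which corrects faulty attachments, all fell. Incenp, its scaffold, went from 252, 256 and 263 CPM to 170, 171 and 159 CPM (log2 fold change -0.63 ± 0.036, adjusted p = 7.70e-15). Birc5, survivin, went from 152 CPM in each wild-type library to 100.1, 96.5 and 99.0 CPM (log2 fold change -0.63 ± 0.037, adjusted p = 1.59e-14). Aurkb, the kinase of the complex, went from 144, 143 and 137 CPM to 97.9, 88.1 and 99.9 CPM (log2 fold change -0.57 ± 0.044, adjusted p = 4.88e-12). Cdca8, borealin, was 1.25-fold higher in wild type. Aurkb was called lower and the related kinase gene Aurka was not called, and the difference between them was not tested.

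Among centromere proteins, Cenpa, the histone H3 variant that marks centromeres, was 1.18-fold higher in wild type. Cenpe, a kinetochore motor, stood at 329, 334 and 256 CPM in wild type and 117, 127 and 119 CPM in knockout (log2 fold change -1.34 ± 0.13, adjusted p = 4.35e-04). Cenpf, a large coiled-coil protein of the outer kinetochore, stood at 270, 273 and 210 CPM in wild type and 169, 184 and 163 CPM in knockout (log2 fold change -0.55 ± 0.13, adjusted p = 0.0142). In both genes wild-type replicate 3 was well below the other wild-type libraries, at 0.774 of their mean. The call of Cenpf was lost without knockout replicate 3 (log2 fold change -0.50, adjusted p = 0.0576), and its adjusted p was the largest among the members called lower.

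All 12 motor and spindle genes fell, with a median log2 fold change of -0.77. Kif11 encodes the kinesin Eg5, which slides antiparallel microtubules apart to build a bipolar spindle (chromosome 19, 37376403 to 37421859). It stood at 353, 359 and 335 CPM in wild type and 76.9, 83.4 and 74.6 CPM in knockout, 4.46-fold above knockout in wild type (log2 fold change -2.16 ± 0.042, adjusted p = 4.09e-25). This was the largest fall among the members, yet 672 of the 13022 tested genes had a lower log2 fold change. On the deposited TPM scale it went from 199 ± 8.003 to 38.7 ± 2.79 TPM (SD, n = 3 each). Kif11 shares no exon position with another annotated gene. Of the 50 members 16 do share exon positions with other genes. Among these are Ncapg (944 bases with Lcorl), Prc1 (911 with Rccd1), Kif4 (832 with Pdzd11) and Ube2c (592 with Tnnc2), all on opposite strands. Of the 34 members without such overlap 32 were called lower and 1 higher.

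The kinesins of the central spindle fell less than Kif11. Kif23, a subunit of centralspindlin, went from 201, 211 and 206 CPM to 108, 115 and 105 CPM (log2 fold change -0.91 ± 0.039, adjusted p = 1.20e-17). Kif20a, which carries the passenger complex to the midzone, went from 188, 193 and 194 CPM to 104, 108 and 110 CPM (log2 fold change -0.84 ± 0.037, adjusted p = 2.71e-17), and it shares 1271 exonic bases with Cdc23 on the opposite strand. Kif20b went from 143, 140 and 103 CPM to 49.0, 53.6 and 49.96 CPM, with wild-type replicate 3 at 0.728 of the mean of the other wild-type libraries. The log2 fold change of Kif20b was -1.34 ± 0.16 (adjusted p = 1.18e-03).

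Chromosome-arm and microtubule-end motors ranged from moderate to small falls. Kif22, a chromokinesin, was 1.63-fold higher in wild type and Kif18b, which acts at astral microtubule ends, was 1.60-fold higher. Kif2c, the microtubule-depolymerizing kinesin MCAK, was 1.43-fold higher in wild type. Kif4, a chromokinesin, was 1.18-fold higher. Of the spindle proteins that are not kinesins, Hmmr went from 166, 164 and 160 CPM to 80.8, 90.4 and 83.2 CPM (log2 fold change -0.94 ± 0.042, adjusted p = 2.75e-17). Nusap1 was 1.78-fold higher in wild type. The spindle assembly factor Tpx2, which activates Aurora A, was 1.24-fold higher, and Dlgap5 1.19-fold higher.

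All 6 genes of condensin and chromosome structure fell, with a median log2 fold change of -0.73. Top2a, topoisomerase II alpha, which untangles sister chromatids (chromosome 11, 98992943 to 99024189), had the highest level per length among the members, at 631 ± 12.6 TPM in wild type and 313 ± 20.1 TPM in knockout (SD, n = 3 each). Its libraries stood at 1330, 1358 and 1316 CPM in wild type and 768, 800 and 726 CPM in knockout (log2 fold change -0.80 ± 0.034, adjusted p = 7.32e-18). The 3 subunits particular to condensin I all fell. Ncapd2 went from 264, 277 and 269 CPM to 152, 161 and 160 CPM (log2 fold change -0.78 ± 0.036, adjusted p = 5.35e-17). Ncaph, the kleisin, went from 132, 138 and 130 CPM to 83.8, 84.9 and 81.4 CPM (log2 fold change -0.68 ± 0.040, adjusted p = 1.72e-14). Ncapg went from 177, 178 and 162 CPM to 114, 120 and 113 CPM (log2 fold change -0.58 ± 0.041, adjusted p = 7.43e-13).

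The ATPase subunits that condensin I shares with condensin II also fell. Smc2 was 2.26-fold and Smc4 1.48-fold higher in wild type. In wild-type replicate 3 they stood at 0.847 and 0.844 of the mean of the other wild-type libraries. The 3 subunits particular to condensin II, which are not members, had log2 fold changes of -1.18 ± 0.047 (Ncapg2), -0.88 ± 0.044 (Ncapd3) and -0.14 ± 0.041 (Ncaph2), and all were called lower.

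All 4 cytokinesis genes fell, with a median log2 fold change of -0.77. Anln, anillin, the scaffold of the contractile ring (chromosome 9, 22332012 to 22389188), stood at 885, 877 and 875 CPM in wild type and 466, 472 and 438 CPM in knockout, 1.92-fold above knockout in wild type (log2 fold change -0.94 ± 0.033, adjusted p = 1.05e-19). Ect2, the exchange factor that activates RhoA at the cell equator, went from 309, 302 and 297 CPM to 160, 169 and 158 CPM (log2 fold change -0.90 ± 0.036, adjusted p = 2.16e-18). Prc1, which bundles midzone microtubules, went from 201, 210 and 207 CPM to 138, 138 and 122 CPM (log2 fold change -0.63 ± 0.041, adjusted p = 1.46e-13). Racgap1, the partner of Kif23 in centralspindlin, went from 197, 204 and 206 CPM to 160, 167 and 170 CPM (log2 fold change -0.29 ± 0.036, adjusted p = 4.68e-08). The partners in centralspindlin thus fell by unequal amounts, 1.88-fold for Kif23 and 1.22-fold for Racgap1, and the difference between them was not tested.

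Other genes of division, 131 in 7 lists that hold no member, were all tested, and 91 fell, 24 rose and 16 were not called, with a median log2 fold change of -0.46. Lower genes made up 69.5% of them and higher genes 18.3%, beside 40.9% and 41.3% of all tested genes. The list nearest to the members, 44 other genes of G2 and mitosis, had 35 lower and 6 higher, with a median of -0.59. Among them Knstrn, a spindle and kinetochore adaptor, Kntc1, a subunit of the checkpoint RZZ complex, and Cep55, which acts in abscission, had log2 fold changes of -1.46 ± 0.042, -1.31 ± 0.045 and -1.39 ± 0.048. Pttg1, securin, the inhibitor of separase, rose (0.62 ± 0.045), as did Mad1l1, the kinetochore anchor of MAD2 (0.56 ± 0.046). Cks1b, a CDK subunit, had a log2 fold change of 0.25 ± 0.040, which was 0.044 and not called on log2(TPM + 1). On that scale the genes called higher numbered 2 among these 44, 3 of 16 for the APC/C, 2 of 21 for the inner kinetochore and 1 of 12 for cohesin.

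Of 21 inner kinetochore and bridging genes 15 fell and 4 rose, with a median log2 fold change of -0.66. Cenpc1, the platform of the inner kinetochore, fell (-1.26 ± 0.057), as did Zwint (-0.84 ± 0.041) and Cenpn (-1.02 ± 0.054), while Pmf1 and Cenpx rose (0.98 ± 0.049 and 1.07 ± 0.074). Of 12 cohesin genes 10 fell and 2 rose, with a median of -0.47. Rad21, the kleisin of cohesin, was at -0.54 ± 0.031 and Stag1 at -0.89 ± 0.052, while its alternative Stag2 rose (0.41 ± 0.051). Smc1a was at 0.24 ± 0.037 and on log2(TPM + 1) at 0.034, where it was not called.

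In the remaining lists genes also moved in both directions, with medians nearer to 0 but more genes lower than higher. Lower and higher genes made up 56.25% and 37.5% for the APC/C and 56.25% and 18.75% for augmin and gamma-tubulin. For MuvB, B-MYB, E2F and the pocket proteins they made up 52.6% and 15.8%. Among all tested genes the shares were 40.9% and 41.3%. Of 16 APC/C genes 9 fell and 6 rose, with a median log2 fold change of -0.22. Fbxo5, the APC/C inhibitor EMI1, fell (-1.25 ± 0.066), and Anapc11, the RING subunit, rose (0.69 ± 0.057). Of 16 genes of augmin and the gamma-tubulin ring 9 fell and 3 rose, with a median of -0.18. Haus8 and Haus4 fell (-1.04 ± 0.066 and -1.0005 ± 0.065), and another augmin subunit gene, Haus7, rose (1.83 ± 0.080). Of 19 genes of MuvB, B-MYB, E2F and the pocket proteins 10 fell and 3 rose, with a median of -0.14.

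The last list holds the factors that regulate the members. The DP partners of E2F fell (Tfdp2 -1.97 ± 0.056, Tfdp1 -0.84 ± 0.042), as did the atypical E2f8 and E2f7 (-1.37 ± 0.054 and -1.28 ± 0.059). The E2F genes did not all fall, and E2f5 rose (0.65 ± 0.058). Mybl2, B-MYB, was at -0.25 ± 0.049. Of the MuvB core, Lin37 rose (1.15 ± 0.074) and Lin9 was at 0.23 ± 0.065, a call lost on log2(TPM + 1) (0.026). Lin54, the CHR-binding subunit, was not called (0.018 ± 0.045), but on log2(TPM + 1) it was called lower (-0.19) and with the GC and length offsets higher (0.12). Mybl2, Tfdp1 and Lin54 were picked out after their values were seen.

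**Figure D4:**
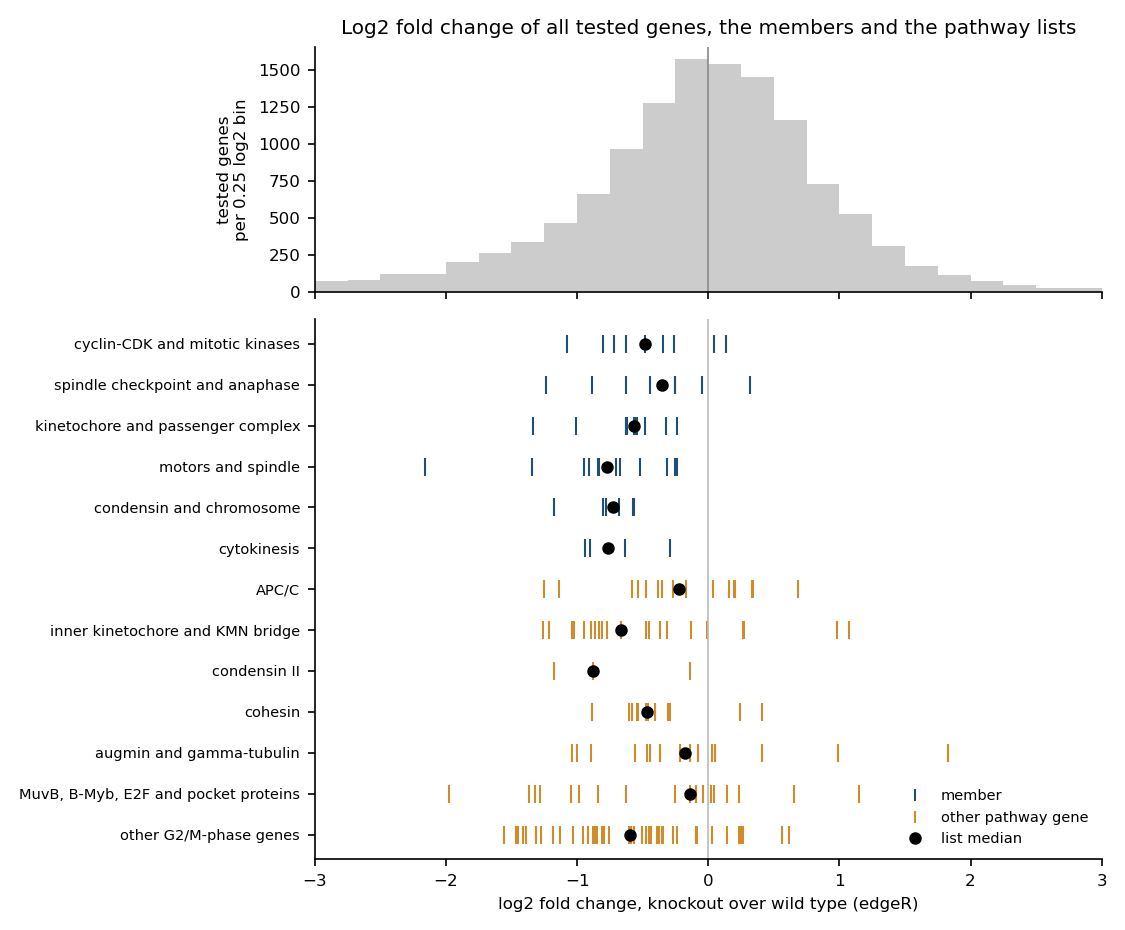
Above, the number of tested genes per bin of log2 fold change (658 genes beyond -3 or 3 are not drawn), and below, each gene of the 6 member groups (blue ticks) and 7 other lists (orange ticks) on the same axis, with black dots for list medians. Medians run from -0.77 for motors and spindle to -0.35 for the checkpoint among the members, and from -0.88 for condensin II to -0.14 for MuvB and E2F among the other lists.

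Levels per length spanned a wide range in wild type. By deposited TPM the members ran from Spc25, at 30.5 ± 1.47 TPM, through Mad2l1 and Nuf2, at 32.5 ± 0.660 and 32.9 ± 1.64 TPM, up to Smc4 at 411 ± 41.2, Anln at 413 ± 4.34, Ccnb2 at 511 ± 6.97 and Top2a at 631 ± 12.6 TPM (SD, n = 3 each). Smc4 and Anln did not differ beyond their spread and neither did Mad2l1 and Nuf2, whereas Anln, Ccnb2 and Top2a were separated by many times their SD. In knockout Top2a, at 313 ± 20.1 TPM, was followed by Ccnb2 at 286 ± 10.4 and Ube2c at 285 ± 12.3 TPM, and the libraries of these 3 genes overlapped. Kif11, at 199 TPM in wild type, was at 38.7 TPM in knockout, near Spc24 at 38.3 ± 2.35 TPM.

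Members with AT-rich transcripts had lower log2 fold changes than other members. Across the 50 members, log2 fold change rose with the GC content of the longest transcript (Spearman rho 0.43, n = 50 genes, which share the same 6 libraries), beside a rho of 0.011 across 13008 tested genes with a transcript. Log2 fold change also fell with the length of that transcript (rho -0.28 across members and -0.15 across the 13008 genes). With the tested genes divided by GC content into 3 equal bins, the lowest bin reached up to 46.4%, and there the 24 members had a median log2 fold change of -0.82 and all genes -0.038. In the middle bin the medians were -0.54 for 16 members and 0.041 for all genes, and in the highest bin -0.50 for 10 members and -0.0039 for all genes. In each bin the median of the members was below that of all genes, and the part of GC content in the results was not tested.

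The difference of wild-type replicate 3 from the mean of wild-type replicates 1 and 2 rose with GC content as well (rho 0.49 across members and 0.18 across all genes). The same difference fell with transcript length (rho -0.39 across members and -0.15 across all genes). It was below -0.2 in 5 members, Kif20b, Cenpe, Cenpf, Smc4 and Smc2, beside 6.88% of all tested genes, and within 0.1 of 0 in 41 of the 50. Without wild-type replicate 3 the members' count was again 46 lower and 2 higher, with a median log2 fold change of -0.63. With offsets for GC content and transcript length, chosen after seeing the data, 47 were lower and 2 higher, with a median of -0.64, and Kif11 was at -2.05.

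**Figure D5:**
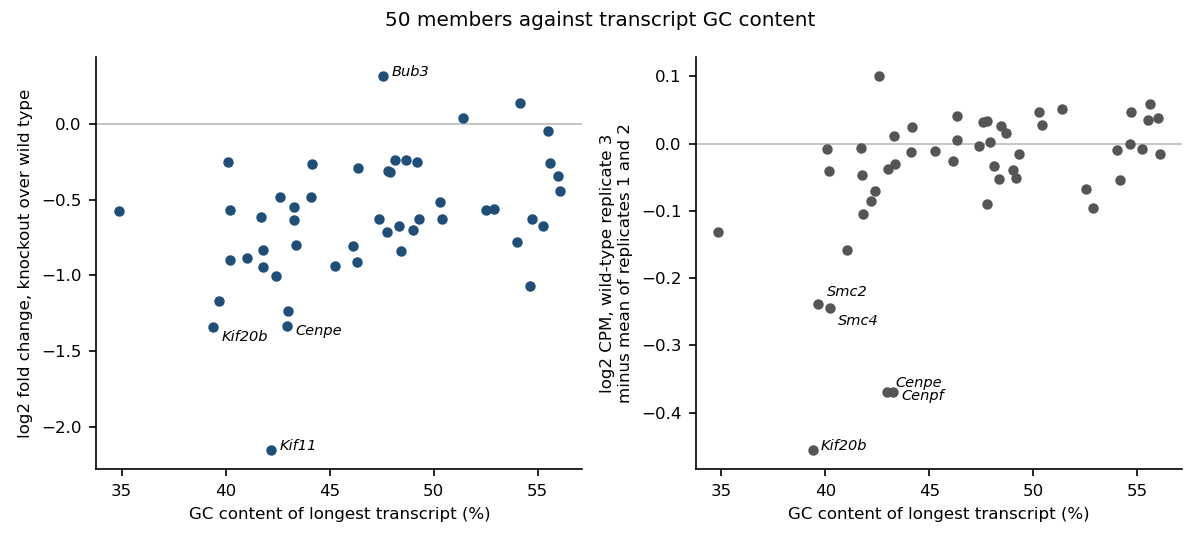
For each of the 50 members, against the GC content of its longest transcript, the log2 fold change of knockout over wild type (left) and the log2 CPM of wild-type replicate 3 minus the mean of wild-type replicates 1 and 2 (right). Kif11 at -2.16 is lowest on the left, and Kif20b, Cenpe, Cenpf, Smc4 and Smc2 are the 5 members below -0.2 on the right.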

How the data were processed

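RNA-seq was done on 6 libraries (3 per genotype), made, per the labels' protocols, from Trizol RNA with a DNBseq kit. STAR 2.7.8a, featureCounts 2.0.1 and GRCm38 are named, without roles or settings, per the submitters' processing notes; which annotation and strand setting were used, and how multimapping reads were handled, is not given in the sources used here. Gene counts were deposited unnormalised by the authors, and a TPM table beside them was also made by the authors; per-library files held the same values. Symbols, positions and transcripts came from GENCODE M21, promoters from RefSeq. Counts passed filterByExpr and TMM scaling before edgeR 4.0.16 (robust quasi-likelihood F test, two-sided, adjusted over 13022 genes, R 4.3.3). CPM use TMM-scaled library sizes, and the SE is the size of the log2 fold change over the root of F. The code was tested on simulated data in which few genes were changed, equally up and down. That test does not check the scaling where 82.3% of genes are called.

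The members and lists were chosen with earlier results of these data known. Library values are given, in each group of members, for 4 called genes ranked first by adjusted p, for genes called higher and for those not called; Ccnb1, Cdc20, Cenpe, Cenpf and Kif20b were added to these after their values were seen; other lists have up to 3 named genes a direction. Near-identical copies were sought with blastn (95% identity over 200 bases). Alternatives were RLE or upper-quartile scaling, DESeq2 1.42.0, limma-trend (limma 3.58.1) on deposited TPM with 1 or 0.1 added before the log2, no filter, a stricter one (1 CPM in at least 3 libraries), testing against 1.2-fold, a replicate block, each library left out, and GC and length offsets, the last added after seeing the data.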

Additional observations from a re-analysis of the deposited data

How the results depend on the processing

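Of the 46 members called lower, 46 were again called lower under 13 of 16 alternatives, 39 in the test against a 1.2-fold change, 45 without knockout replicate 3 (Cenpf was lost) and 45 with GC and length offsets (Mad2l1 was lost). The members called higher numbered 1 in place of 2 with upper-quartile factors, on log2(TPM + 1), on log2(TPM + 0.1) and in the test against 1.2-fold. The median log2 fold change of the members was -0.76 with upper-quartile factors, -0.83 on log2(TPM + 1) and -0.83 on log2(TPM + 0.1), and it ranged from -0.63 to -0.60 when each library was left out in turn, with -0.60 without knockout replicate 3. Cdc25b changed sign on log2(TPM + 1) (-0.068) and log2(TPM + 0.1) (-0.068). Aurka changed sign with upper-quartile factors (-0.092), on log2(TPM + 1) (-0.17) and log2(TPM + 0.1) (-0.17), and with GC and length offsets (-0.14). The replicate numbers did not pair the libraries (correlations of same-numbered deviations -0.0074, 0.042 and 0.013), and with the replicate block the members again numbered 46 lower and 2 higher, while all genes gave 5368 lower and 5430 higher. The cause of these shifts was not tested. With 3 libraries a group and no stated separate cultures, differences between cultures are not measured here. The SE was 0.059 for Ccnb1 and 0.048 for Mad2l1, beside 0.034 for Top2a and 0.033 for Anln, which have more counts. Among the members it was largest for Kif20b (0.16), Cenpe (0.13) and Cenpf (0.13), where wild-type replicate 3 lay well below the other wild-type libraries.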
